A study of Rattus norvegicus with 4 samples.

Results

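The genes described here encode substrate receptors and RING proteins of the ubiquitin system whose names begin with Asb, Fbxl, Fbxo, Klhl or Trim followed by a number. They were taken by name, as protein-coding genes, from the gene names of the authors' deposited table, and their counts were joined by gene identifier. The rule found 160 genes of the 32883 in the count table, of which 146 had a summed count of at least 15 over the libraries and are described. By family these were 16 of 17 Asb, 17 of 17 Fbxl, 32 of 35 Fbxo, 34 of 36 Klhl and 47 of 55 Trim genes. At the threshold on summed counts, Fbxo43 lay just outside with a summed count of 14 and Fbxo2 just inside with 22.

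The libraries were rRNA-depleted directional total RNA from cultured ventricular cardiomyocytes from Sprague-Dawley rats at postnatal day 2. Phenylephrine (PE), an adrenergic agonist that makes such cells grow, was given at 20 µM for 24 h in 2 libraries, and 2 control libraries are labelled as untreated. The treatment protocol of the labels names PE for every sample, so the groups rest on the sample titles and the treatment label. Cells of both groups had been pre-plated for 1 h to remove other cell types and were kept in medium with serum. The labels do not say that the libraries of a group come from separate cultures, so the spread behind each p-value is that among these libraries and may be technical. Total counts were 56948370 and 48075810 in the PE libraries and 51917449 and 45637881 in the controls, and 15257 genes were tested. The controls differed more between themselves than the PE libraries did, with 24 of 142 tested adaptors over 1.5-fold apart in the control pair and 7 of 141 in the PE pair.

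Ubiquitin ligases attach ubiquitin to chosen proteins and so mark many of them for the proteasome. Cullin-RING ligases are modular, with a scaffold that holds an exchangeable receptor for the substrate. Asb proteins join cullin-5 through a SOCS box and elongins, F-box proteins (Fbxo and Fbxl) join cullin-1 through SKP1, and Klhl proteins join cullin-3 through a BTB domain, while most Trim proteins carry a RING domain and act as ligases themselves. In striated muscle, Fbxo32 (atrogin) and Trim63 (MuRF1) are known for their induction in wasting, and several Klhl and Asb proteins are largely confined to muscle.

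With PE, 11 of 21 tested adaptors of a striated muscle list fell, while 105 of the 121 other tested adaptors were not called. Of all adaptors, 142 could be tested, of which 11 rose, 18 fell and 113 did not pass. A gene counts as risen or fallen where edgeR's quasi-likelihood test gave an adjusted p under 0.05 over all genes tested. Of all genes tested, 15.7% were called, 7.39% higher and 8.3% lower in PE, against 7.75% of adaptors higher and 12.7% lower. The adaptors' shares are near these backgrounds, and their median log2 fold change of PE over control was -0.05, against -0.01 over all genes. Values did not overlap between groups for 77 of the 142, against 56.7% of all genes. The muscle list holds 22 adaptors known from striated muscle. This list was chosen with earlier results of these data known and need not hold every adaptor that acts in muscle. Of the 21 tested, 11 fell, 2 rose and 8 did not pass, with a median log2 fold change of -0.70. Setting Asb10 at its bound could not move this median, because Asb10 stayed the lowest of the values. Outside that list 7 fell and 9 rose of 121 tested, with a median of -0.05. Falls of at least 2-fold were called for 11 adaptors (4.82% of all genes) and rises of at least 2-fold for 8 (4.08% of all genes). Falls of at least 4-fold were called for 4 adaptors, all on the muscle list, and for 1.43% of all genes. Without PE replicate 1 the list had 8 falls and 1 rise, and without PE replicate 2 it had 6 falls and 1 rise. Asb11, also on the list, is not analysed here.

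**Figure D1:**
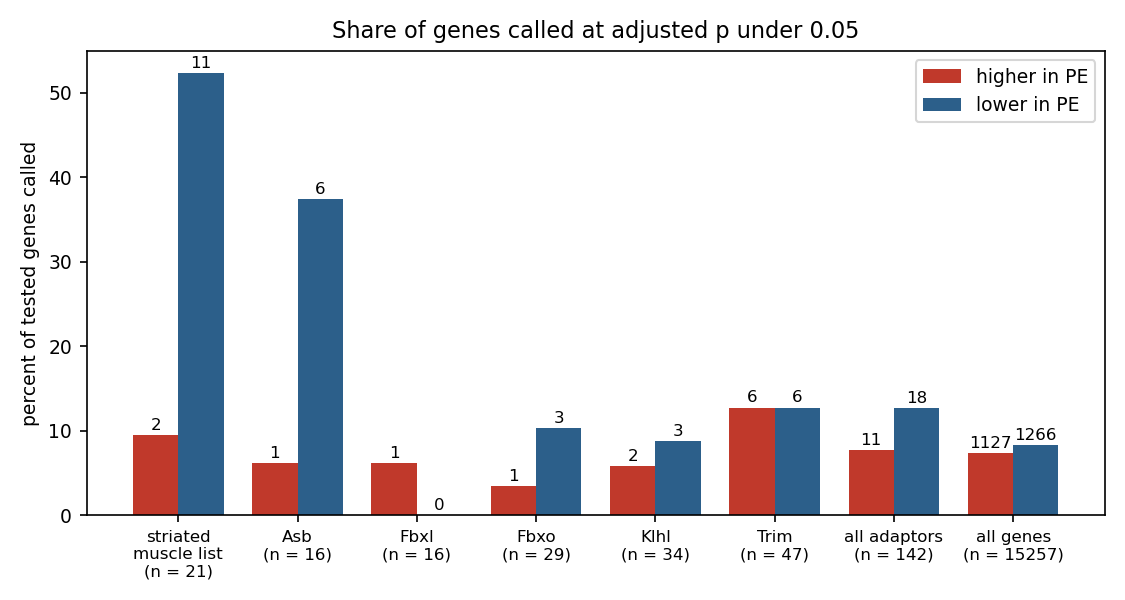
Percent of tested genes called at an adjusted p under 0.05 (vertical axis), higher in PE (red) or lower in PE (blue), for the striated muscle list, each family, all adaptors and all genes; numbers above the bars are gene counts. The muscle list had 11 genes lower in PE and 2 higher, and the Asb family 6 and 1, while the bars of the Klhl family stood near those of all genes.

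Marker lists of other cell types were measured beside the adaptors, and several had lower sums in PE. The summed CPM (counts scaled to a common library size after TMM adjustment) of 8 cardiomyocyte markers was 15134 and 16327 in PE libraries, against 14465 and 15476 in controls. These sums overlapped, and the markers were split. By edgeR 2 of the 8 rose and 6 did not pass, while DESeq2 called 3 higher and 1 lower. Their log2 fold changes ran from -0.66 to 0.88, with 4 of the 8 negative. The sum of 7 fibroblast markers was 10082 and 9994 in PE libraries and 18165 and 16275 in controls, and 2 of the 7 fell. Col3a1, which fell, was the most abundant of them in both controls, at 7841 and 6076 CPM, against 2603 and 2843 CPM in PE libraries. The fibroblast list was mixed, since Tcf21, Lum and Dcn lay above 0 (0.04, 0.11 and 0.50), with overlapping groups, and the other 4 below. The sum of 5 endothelial markers was 124 and 128 in PE libraries and 209 and 210 in controls, and 4 of the 5 fell. The sum of 7 macrophage markers was 95.9 and 99.4 in PE libraries, against 144 and 157 in controls, and 2 of the 7 fell. Mesothelial markers (5 genes) summed to 79.6 and 87.7 in PE libraries and 156 and 123 in controls, and 2 fell and 1 rose. The sums of 5 smooth muscle markers overlapped, at 658 and 778 in PE libraries and 1049 and 688 in controls, and 2 fell while 1, Cnn1, rose (log2 fold change 4.97 ± 0.20, edgeR adjusted p = 1.79e-06). Over all genes 7.39% were called higher and 8.3% lower. None of these lists had a marker at 0 throughout. The 5 skeletal myoblast markers had 5 counts in all, with Myod1, Myf5 and Pax7 at 0 in every library, so the muscle adaptors were measured where these skeletal genes were near 0. In bulk RNA, fewer cells of a type and less RNA per cell cannot be told apart. The part of the other cell types in the results that follow was not tested.

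Promoter windows are printed for the 4 falling muscle members and the 1 rising member that the results turn on most, so that the sequence at the starts of genes that moved together can be read beside their values. RefSeq windows of build GRCr8, a later assembly than the Rnor_6.0 of the counts, were found for 136 of the 160 members and for 24 of the 29 that were called. Fbxo32, Klhl38, Asb9, Trim15 and Trim50 had none. Each window runs from 250 bases before to 50 bases after the annotated start, 5′ to 3′ on the strand of the gene. They are Klhl33 at chr15:26589717-26590016 on the minus strand, Asb14 at chr16:2102126-2102425 on the plus strand, Asb18 at chr9:98043421-98043720 on the minus strand, Trim63 at chr5:151816986-151817285 on the plus strand and Fbxl2 at chr8:122843216-122843515 on the minus strand. Capitals mark matches on either strand to the 7 motifs that were searched.
Klhl33: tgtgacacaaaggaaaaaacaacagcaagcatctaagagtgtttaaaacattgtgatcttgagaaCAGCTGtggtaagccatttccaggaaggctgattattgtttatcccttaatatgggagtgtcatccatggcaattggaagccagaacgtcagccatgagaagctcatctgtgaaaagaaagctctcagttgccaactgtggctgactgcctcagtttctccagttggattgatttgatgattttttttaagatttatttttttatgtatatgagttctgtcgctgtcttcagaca
Asb14: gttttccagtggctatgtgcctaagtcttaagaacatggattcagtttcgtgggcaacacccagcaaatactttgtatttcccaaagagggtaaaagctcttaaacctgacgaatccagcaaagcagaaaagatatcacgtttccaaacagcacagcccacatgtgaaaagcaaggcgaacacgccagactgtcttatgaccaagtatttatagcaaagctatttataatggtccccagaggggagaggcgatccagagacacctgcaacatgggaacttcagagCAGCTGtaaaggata
Asb18: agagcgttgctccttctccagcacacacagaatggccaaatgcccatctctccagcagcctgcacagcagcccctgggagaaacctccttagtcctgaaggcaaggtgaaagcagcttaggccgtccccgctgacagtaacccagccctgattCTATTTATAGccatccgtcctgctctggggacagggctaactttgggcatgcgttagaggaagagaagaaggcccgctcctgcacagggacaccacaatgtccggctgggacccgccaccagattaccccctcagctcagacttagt
Trim63: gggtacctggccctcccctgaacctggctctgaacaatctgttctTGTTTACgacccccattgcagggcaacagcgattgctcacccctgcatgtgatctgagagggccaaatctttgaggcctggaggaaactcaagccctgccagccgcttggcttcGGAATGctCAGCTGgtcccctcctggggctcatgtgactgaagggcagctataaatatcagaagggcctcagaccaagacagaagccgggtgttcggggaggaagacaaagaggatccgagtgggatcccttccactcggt
Fbxl2: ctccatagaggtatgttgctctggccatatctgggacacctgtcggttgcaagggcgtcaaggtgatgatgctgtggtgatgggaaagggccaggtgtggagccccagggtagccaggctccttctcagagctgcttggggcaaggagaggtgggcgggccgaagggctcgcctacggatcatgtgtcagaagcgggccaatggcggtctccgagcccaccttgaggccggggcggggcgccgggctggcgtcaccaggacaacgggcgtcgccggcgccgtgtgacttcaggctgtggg

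The motifs were the muscle E-box CAGCTG, the M-CAT element CATTCC, the FOXO core GTAAACA, the AP-1 site TGANTCA, the ERR core AAGGTCA, the MEF2 box (CTA and TAG around A or T bases) and the CArG box (CC and GG around A or T bases). No matches overlapped in the printed windows. Klhl33 and Asb14 held an E-box, Asb18 a MEF2 box, and Trim63 an E-box, an M-CAT element and a FOXO core. None of the 7 was found in the window of Fbxl2, which says only that these letters are not in it. An E-box was present in 5 of 9 falling muscle members with a window and in 5 of 9 of the other muscle members, against 16.2% of 27457 genes with a window and 23.5% of the 136 adaptors. The E-box thus occurred equally in muscle adaptors that fell and in those that did not. A MEF2 box was found in 1 of 9 falling and 3 of 9 other muscle members, against 0.637% of all genes, and a FOXO core in 1 of 9 and 0 of 9, against 4.13%. The M-CAT element was found in 3 of 9 and 1 of 9, against 15.03%. Of the remaining motifs, AP-1 was found in 0 and 1 of 9 (8.04% of all genes), CArG in 0 and 1 of 9 (1.77%) and ERR in none of either group (4.83%). The median GC content of the windows was 50.3% in falling muscle members, 54.3% in the other muscle members, 58.5% over all adaptors with a window and 52.3% over all genes.

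Among the Asb genes, whose products are cullin-5 receptors, 6 fell, 1 rose and 9 did not pass. The falls were 37.5% of those tested and the rise 6.25%, against 8.3% and 7.39% of all genes. Asb14 (ENSRNOG00000013346) had 1.07 and 0.826 CPM in PE libraries, against 13.7 and 15.9 CPM in controls. Both PE libraries lay far below both controls, a 15.5-fold fall (log2 fold change -3.95 ± 0.24 SE, adjusted p = 1.38e-05). In the RefSeq annotation Asb14 overlaps Appl1, whose log2 fold change was 0.59 ± 0.20 and did not pass (adjusted p = 0.0754), so reads of the overlap may have gone to either gene. Asb18 (ENSRNOG00000019557) had 0.588 and 0.826 CPM in PE libraries and 3.89 and 4.39 CPM in controls, and fell by 2.55 ± 0.29 on the log2 scale (adjusted p = 0.000304). Asb10 (ENSRNOG00000024885) had 0 counts in both PE libraries and 38 and 27 counts in controls 1 and 2. With 3 counts over both PE libraries as the floor, or 0.029 CPM, it was at least 22.4-fold lower in PE (adjusted p = 0.00151).

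Asb12 and Asb15 fell less. Asb12 had 6.59 and 4.24 CPM in PE libraries, against 12.4 and 14.02 CPM in controls, a log2 fold change of -1.28 ± 0.24 (edgeR adjusted p = 0.00504) that lost its call when PE replicate 2 was left out (-0.99, adjusted p = 0.067). Asb15 had 12.2 and 11.2 CPM in PE libraries, against 20.8 and 24.99 CPM in controls, at -0.97 ± 0.19 (adjusted p = 0.00592), and lost its call when PE replicate 1 was left out (-1.03, adjusted p = 0.0573), as it did when PE replicate 2 was left out (-0.90, adjusted p = 0.111). In RefSeq the neighbours of Asb15 are Ndufa5 and Lmod2. The groups did not overlap for either gene. Asb2, which targets filamins in muscle, did not pass, with 74.96 and 97.5 CPM in PE libraries and 121 and 76.2 CPM in controls, which overlapped (-0.19 ± 0.23, adjusted p = 0.634). It passed without control replicate 2 (-0.49, adjusted p = 0.00514) and was at 0.18 without control replicate 1. Asb5 was also uncalled, at 0.944 and 0.890 CPM in PE libraries and 0.820 and 1.38 CPM in controls.

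Outside the muscle list, Asb9, known to bind creatine kinases, fell, and Asb4, studied in vascular development, rose. Asb9 had 6.66 and 6.40 CPM in PE libraries and 15.8 and 19.7 CPM in controls, a fall of 1.44 ± 0.20 on the log2 scale (edgeR adjusted p = 0.000878). Asb4 had 8.96 and 8.60 CPM in PE libraries and 5.44 and 4.32 CPM in controls (0.85 ± 0.21, adjusted p = 0.0217). The groups stood apart for both genes, and Asb4 lost its call when PE replicate 1 was left out (0.82, adjusted p = 0.14), as it did when PE replicate 2 was left out (0.88, adjusted p = 0.09). The other 7 tested Asb genes outside the muscle list did not pass, and 6 of these 7 had log2 fold changes between -0.18 and 0.33. The exception, Asb16, was at -1.74 ± 0.66 (adjusted p = 0.108), on 9 and 3 counts in PE libraries and 25 and 14 in controls. Summed over the family, Asb transcripts took 198 and 217 CPM in PE libraries and 288 and 243 CPM in controls.

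**Figure D2:**
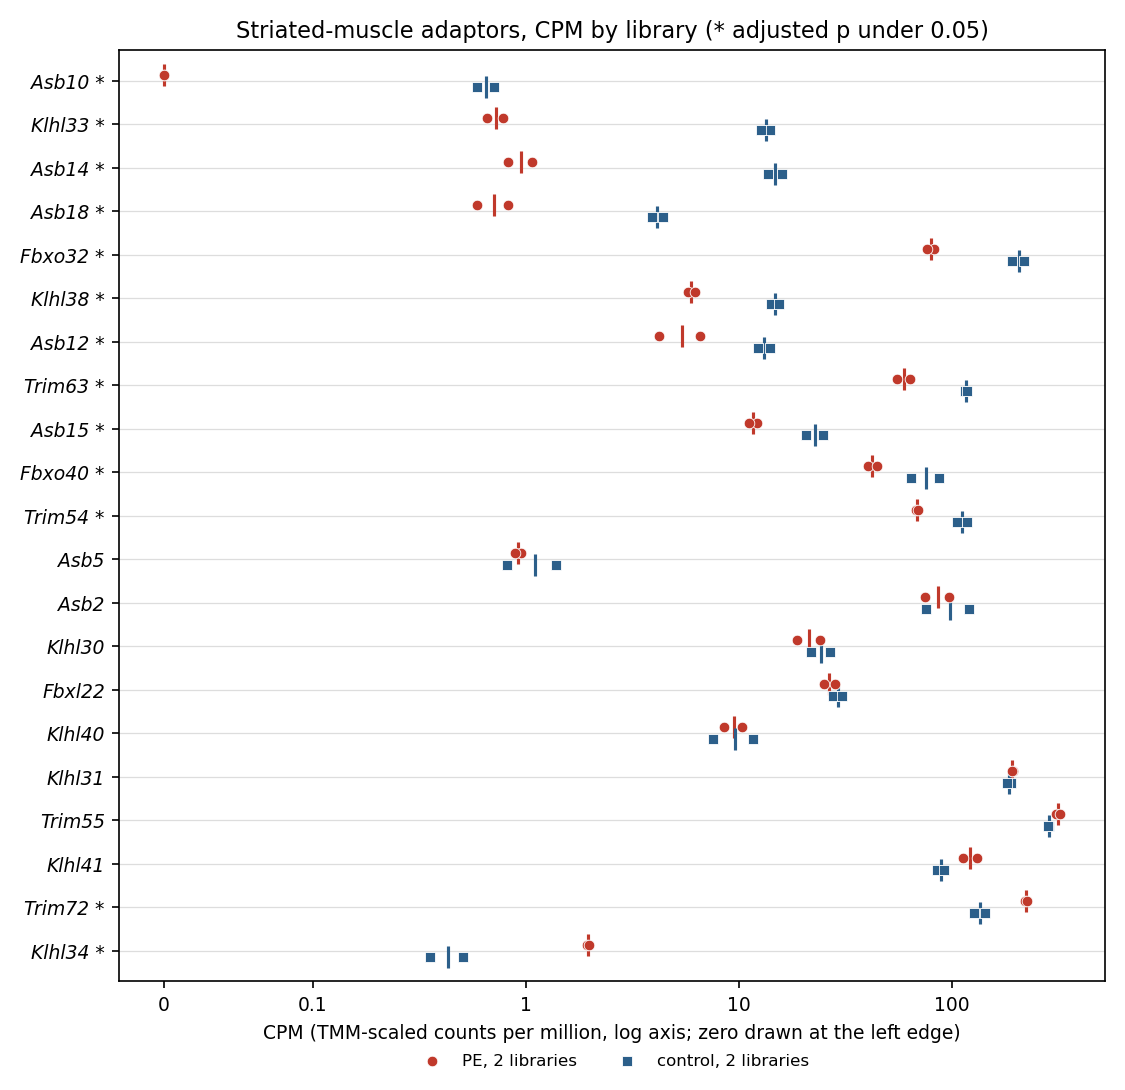
CPM in each library on a log axis for the 21 tested adaptors of the striated muscle list, ordered from the most lowered at the top; red circles are the 2 PE libraries, blue squares the 2 control libraries, ticks the group means and asterisks an adjusted p under 0.05. The 11 genes from Asb10 down to Trim54 had both PE libraries below both controls, and Trim72 and Klhl34 at the bottom had both above. Groups were apart, in either direction, for 56.7% of all genes tested.

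Both Fbxo genes of the muscle list fell. Fbxo32 (ENSRNOG00000006738) had 83.0 and 76.5 CPM in PE libraries, against 193 and 219 CPM in controls. It was 2.59-fold lower with PE, with no overlap (log2 fold change -1.37 ± 0.16, edgeR adjusted p = 0.000365), and its log2 fold change lay between -1.45 and -1.27 when single libraries were left out. Fbxo40, a muscle receptor for the insulin receptor substrate IRS1, had 40.4 and 44.5 CPM in PE libraries and 87.1 and 64.3 CPM in controls, at -0.83 ± 0.19 (adjusted p = 0.0135). The controls differed from each other there, and Fbxo40 lost its call when PE replicate 1 was left out (-0.76, adjusted p = 0.236), as it did when PE replicate 2 was left out (-0.90, adjusted p = 0.114). Klhl38 (ENSRNOG00000007896), the neighbour of Fbxo32 on rat chromosome 7 in RefSeq, had 5.77 and 6.23 CPM in PE libraries and 14.2 and 15.5 CPM in controls. The 2 neighbours fell by like amounts, with Klhl38 at -1.31 ± 0.19 (adjusted p = 0.00124).

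Among the other Fbxo genes, 1 of 27 tested fell and 1 rose. Each was 3.70% of those tested, against 8.3% of all genes called lower and 7.39% called higher. Fbxo31, a receptor for cyclin D1, had 10.0 and 11.5 CPM in PE libraries and 17.8 and 16.5 CPM in controls (-0.67 ± 0.19, edgeR adjusted p = 0.0336), and lost its call when PE replicate 1 was left out (-0.57, adjusted p = 0.471), as it did when PE replicate 2 was left out (-0.77, adjusted p = 0.215). Fbxo17, of the subgroup with an F-box associated domain, had 75 and 64 counts in PE libraries and 11 and 27 in controls, at 1.78 ± 0.49 (adjusted p = 0.033). The control libraries were far apart, and its log2 fold change was 1.19 with control replicate 1 left out and 2.70 with control replicate 2 left out, and it lost its call when PE replicate 1 was left out (1.79, adjusted p = 0.0513). Fbxo17 overlaps the protein-coding gene LOC103689966 in RefSeq. Fbxo11, the uncalled member of the family with the most counts, was at 115 and 99.6 CPM in PE libraries and 107 and 127 CPM in controls, which overlapped. In RefSeq Fbxo11 overlaps the protein-coding gene Msh6.

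Of 16 tested Fbxl genes 1 rose and none fell by edgeR or by DESeq2, with 1 lower at an unadjusted p under 0.05. The rise was 6.25% of those tested, while edgeR called 7.39% of all genes higher and 8.3% lower. The riser, Fbxl2 (ENSRNOG00000027099), is known to bind the regulatory subunit of phosphatidylinositol 3-kinase and carries a prenylation motif. It had 11.4 and 14.2 CPM in PE libraries, against 0.671 and 0.922 CPM in controls. It was 16.1-fold higher in PE (log2 fold change 4.01 ± 0.27, adjusted p = 2.02e-05), and between 3.80 and 4.25 when single libraries were left out. This was the largest fitted log2 fold change among the 11 rises. Fbxl22, a Z-disc protein of the heart, was at 25.1 and 28.3 CPM in PE libraries and 27.9 and 30.5 CPM in controls, with overlap (-0.13 ± 0.17, adjusted p = 0.676). In RefSeq Fbxl22 overlaps the more abundant Herc1, so reads of the overlap may have gone to either gene. Herc1 had 317 and 301 CPM in PE libraries and 269 and 320 CPM in controls, and was not called (0.07 ± 0.17, edgeR adjusted p = 0.831). Fbxl5, an iron sensor, was at 99.7 and 87.9 CPM in PE libraries and 59.5 and 74.0 CPM in controls, higher in both PE libraries but not past the threshold (0.49 ± 0.18, adjusted p = 0.0885), and passed without control replicate 2 (0.66, adjusted p = 0.00025).

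The Klhl genes of muscle split. Klhl33 (ENSRNOG00000025868) had 0.659 and 0.784 CPM in PE libraries, against 14.01 and 12.8 CPM in controls, and was 18.6-fold lower in PE (log2 fold change -4.22 ± 0.24, edgeR adjusted p = 8.65e-06). With Klhl38 it made up the 2 falls among 7 muscle Klhl genes. Klhl34 rose, at 1.94 and 1.97 CPM in PE libraries and 0.354 and 0.505 CPM in controls (2.19 ± 0.36, adjusted p = 0.0025). It overlaps Cnksr2 in RefSeq, which also rose (1.73 ± 0.42, adjusted p = 0.0187), so reads of the overlap may have gone to either gene. Klhl40 and Klhl41, whose human genes are linked to nemaline myopathy, did not pass. Klhl40, which stabilises nebulin and leiomodin-3, had 8.55 and 10.4 CPM in PE libraries and 11.7 and 7.61 CPM in controls (-0.03 ± 0.24, adjusted p = 0.956), and lay at 0.32 with control replicate 1 left out and 0.11 with PE replicate 1 left out. Klhl41 had 132 and 113 CPM in PE libraries and 85.2 and 92.3 CPM in controls, at 0.46 ± 0.16 (adjusted p = 0.086). It was called without control replicate 1 (0.41, adjusted p = 0.0265) and without control replicate 2 (0.53, adjusted p = 0.00335), where the spread came from the PE pair alone. Klhl31 was at 195 and 191 CPM in PE libraries and 190 and 183 CPM in controls, and Klhl30 at 18.8 and 24.0 CPM in PE libraries and 26.8 and 21.9 CPM in controls, and neither passed (adjusted p = 0.869 and 0.58).

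Of the 27 other tested Klhl genes 1 rose and 1 fell. Each was 3.70% of those tested, against 7.39% of all genes called higher and 8.3% called lower. Klhl2, a receptor for WNK kinases, had 24.96 and 25.04 CPM in PE libraries and 13.6 and 13.0 CPM in controls (0.91 ± 0.17, edgeR adjusted p = 0.0055), and lost its call when PE replicate 1 was left out (0.92, adjusted p = 0.072), as it did when PE replicate 2 was left out (0.92, adjusted p = 0.0701). Klhl4 had 45 and 29 counts in PE libraries and 76 and 84 in controls (-1.19 ± 0.35, adjusted p = 0.0458). Its call was lost with DESeq2 (adjusted p = 0.0854), without control replicate 2 (-0.99, adjusted p = 0.0843), without PE replicate 1 (-1.40, adjusted p = 0.104) and without PE replicate 2 (-1.01, adjusted p = 0.284). The quartiles of the 27 log2 fold changes were -0.21 and 0.12.

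**Figure D3:**
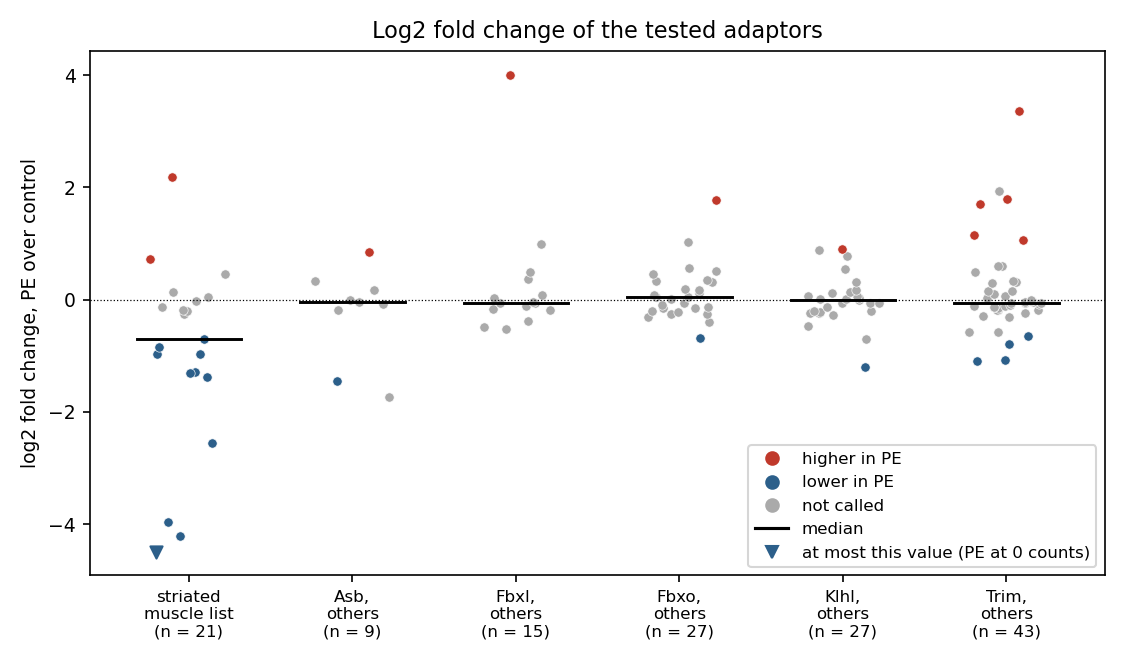
Log2 fold change of PE over control (vertical axis) for each of the 142 tested adaptors, by the striated muscle list and by family outside it; red points rose, blue points fell, grey points did not pass, bars are medians, and the triangle is Asb10 at the value its 0 counts in PE allow at most. The muscle list has its median at -0.70, and the median of each other column lies close to 0.

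The Trim genes of muscle comprise the MuRF genes, whose products bind titin and other sarcomere proteins, and Trim72 (MG53), a protein of membrane repair. Trim63 (ENSRNOG00000016543), MuRF1, had 63.8 and 55.6 CPM in PE libraries, against 116 and 118 CPM in controls. It was 1.96-fold lower with no overlap (-0.97 ± 0.16, edgeR adjusted p = 0.00268), and lost its call when PE replicate 2 was left out (-0.87, adjusted p = 0.135). Trim54, MuRF3, had 67.7 and 69.8 CPM in PE libraries and 118 and 106 CPM in controls (-0.70 ± 0.16, adjusted p = 0.0138), and lost its call when PE replicate 1 was left out (-0.68, adjusted p = 0.336), as it did when PE replicate 2 was left out (-0.72, adjusted p = 0.272). Trim55, MuRF2, did not pass, at 310 and 323 CPM in PE libraries and 288 and 284 CPM in controls (0.15 ± 0.16, adjusted p = 0.595). Both PE values of Trim55 lay above both controls, at 1.11-fold, and groups were likewise apart for 56.7% of all genes. Whether the MuRF genes differ in response was not tested. Trim72 rose, with 222 and 227 CPM in PE libraries and 144 and 127 CPM in controls (0.73 ± 0.16, adjusted p = 0.0113), and lost its call when PE replicate 1 was left out (0.75, adjusted p = 0.203), as it did when PE replicate 2 was left out (0.72, adjusted p = 0.23). Summed over Trim54, Trim55 and Trim63, the MuRF transcripts took 441 and 448 CPM in PE libraries and 523 and 508 CPM in controls.

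Of the 43 other tested Trim genes 5 rose and 4 fell. The rises were 11.6% of those tested and the falls 9.30%, against 7.39% and 8.3% of all genes. Trim16 (ENSRNOG00000003219), a member without a RING domain that is linked to the clearance of damaged lysosomes, had 51.8 and 56.4 CPM in PE libraries, against 16.6 and 14.5 CPM in controls. Its 3.47-fold rise (1.80 ± 0.17, edgeR adjusted p = 0.000111) passed with each library left out. Trim15 had 39 and 28 counts in PE libraries and 3 in each control library, a ratio of 10.7 with a 95% counting interval of 4.68 to 30.3 (adjusted p = 0.00461). Trim10 had 59 and 70 counts in PE libraries and 28 and 11 in controls, at 1.70 ± 0.46 (adjusted p = 0.0324). Its value was 2.38 with control replicate 1 left out, and it lost its call when PE replicate 2 was left out (1.45, adjusted p = 0.188). In RefSeq Trim15 overlaps both Trim10 and Trim26, so reads may be shared among them. Trim26 had 3746 and 3387 counts in PE libraries and 3685 and 2891 in controls, far more than Trim15, and was not called (0.07 ± 0.16, adjusted p = 0.825). Trim71, a repressor of RNAs in stem cells, and Trim36 rose on 79 or fewer and 81 or fewer counts per control library, by 1.15 ± 0.34 and 1.07 ± 0.28 (adjusted p = 0.0457 and 0.0254). Trim36 overlaps the protein-coding gene Rpl31l16 in RefSeq. Trim71 lost its call when control replicate 2 was left out (0.80, adjusted p = 0.0552), as it did when PE replicate 2 was left out (0.99, adjusted p = 0.19). With upper-quartile factors Trim71 was at 1.13 and not called (adjusted p = 0.054). Trim36 was not called with PE replicate 1 left out (1.01, adjusted p = 0.154) or with PE replicate 2 left out (1.14, adjusted p = 0.0655).

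Among the falls, Trim2, which targets neurofilament light chain in neurons, had 24.8 and 25.7 CPM in PE libraries and 51.3 and 56.0 CPM in controls. Its log2 fold change was -1.09 ± 0.16 (edgeR adjusted p = 0.00142), and it passed with each library left out. Trim50 had 1.62 and 1.57 CPM in PE libraries and 3.43 and 3.27 CPM in controls (-1.07 ± 0.25, adjusted p = 0.017), Trim34 had 6.15 and 6.29 CPM in PE libraries and 10.5 and 10.9 CPM in controls (-0.79 ± 0.19, adjusted p = 0.0189), and Trim17 had 41.9 and 46.8 CPM in PE libraries and 78.5 and 60.3 CPM in controls (-0.65 ± 0.18, adjusted p = 0.0381). The groups did not overlap for any of these genes. Trim50 overlaps Fkbp6 in RefSeq, which had 4 counts in each PE library and 3 and 10 in controls and was not tested. With PE replicate 1 left out none of Trim50, Trim34 and Trim17 was called, with Trim50 at -1.09, Trim34 at -0.77 and Trim17 at -0.56 (adjusted p = 0.0921, 0.231 and 0.488). The same held with PE replicate 2 left out, with Trim50 at -1.04, Trim34 at -0.80 and Trim17 at -0.72 (adjusted p = 0.103, 0.187 and 0.267). Trim34 lies between Trim6 and Trim5 in RefSeq, a group of close relatives among which reads may be split. The Trim family as a whole took 1927 and 2005 CPM in PE libraries and 2028 and 1811 CPM in controls, which overlapped.

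**Figure D4:**
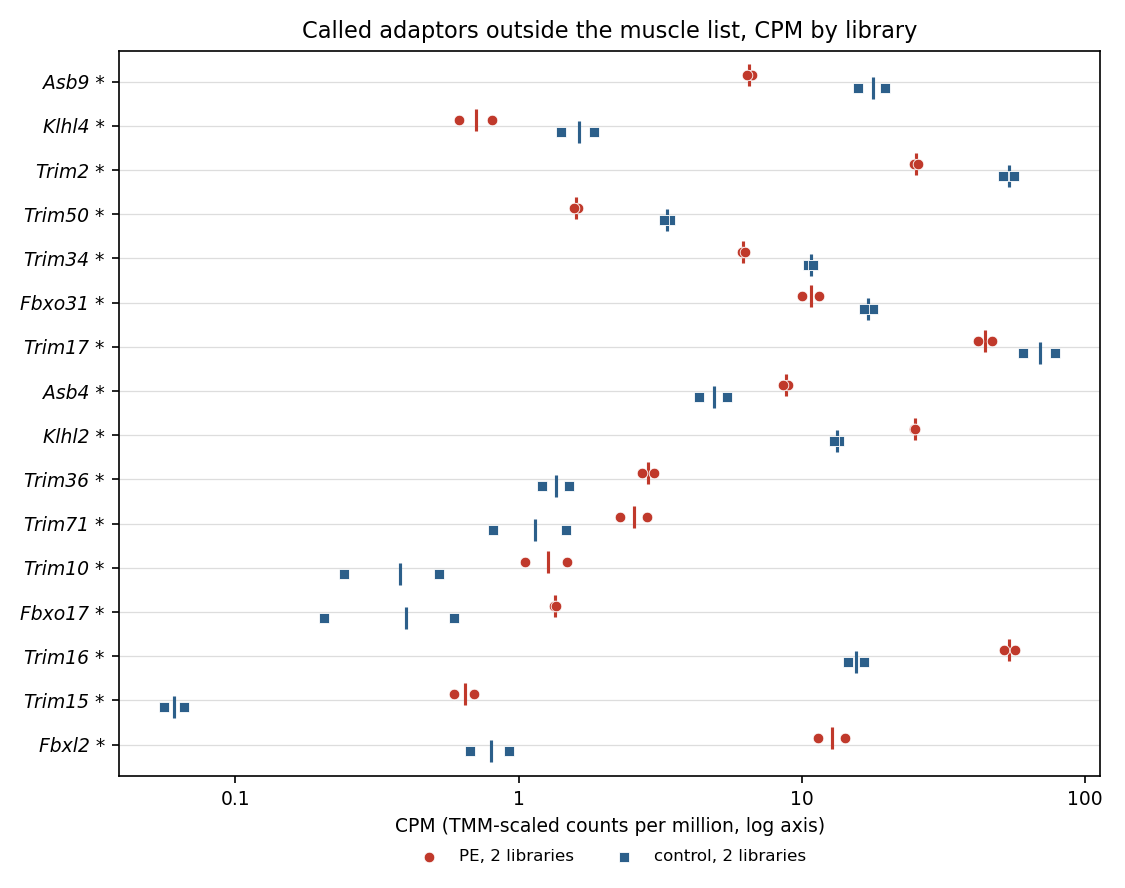
CPM in each library on a log axis for the 16 called adaptors outside the striated muscle list, ordered from the most lowered at the top; red circles are the 2 PE libraries, blue squares the 2 control libraries and ticks the group means. Groups are apart in every row, which showing only called genes favours, and they were apart for 56.7% of all genes tested. The widest gaps are at Trim15 and Fbxl2, and the control libraries of Fbxo17 and Trim10 are themselves far apart.

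The machinery that the adaptors dock on was examined next. Of 37 tested genes of the cullin-RING core (cullins, RING partners, SKP1, elongins, the NEDD8 pathway and the signalosome) 3 rose, 34 did not pass and none fell, with none lower at an unadjusted p under 0.05 or with DESeq2. The rises were 8.11% of the list, near the 7.39% of all genes called higher, and 8.3% of all genes were called lower. The median log2 fold change was 0.13. Cand1, the factor that exchanges receptors on cullin-1, had 236 and 228 CPM in PE libraries and 147 and 134 CPM in controls (0.72 ± 0.16, edgeR adjusted p = 0.0114). Dcun1d3, of the NEDD8 pathway, rose by 0.67 ± 0.18 and Arih1, a partner ligase of neddylated cullins, by 0.53 ± 0.16 (adjusted p = 0.0337 and 0.0438). With PE replicate 1 left out none of the 3 was called, with Cand1 at 0.70, Dcun1d3 at 0.70 and Arih1 at 0.54 (adjusted p = 0.267, 0.254 and 0.495). With PE replicate 2 left out they were at 0.75, 0.64 and 0.54 in the same order and again not called (adjusted p = 0.192, 0.326 and 0.472). Library sizes alone also ended the call of Arih1 (0.49, adjusted p = 0.0645), and so did upper-quartile scaling (0.51, adjusted p = 0.0544).

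Of 34 tested substrate receptors of other families 6 rose and 3 fell, with a median of 0.13. The rises were 17.6% of this list and the falls 8.82%, against 7.39% and 8.3% of all genes. Kbtbd11, a BTB-kelch protein, had 5.68 and 5.17 CPM in PE libraries and 1.32 and 1.18 CPM in controls (2.11 ± 0.25, edgeR adjusted p = 0.000318). Spsb4, a SOCS-box receptor, rose by 1.64 ± 0.23 and Enc1, a BTB-kelch protein, by 1.04 ± 0.16 (adjusted p = 0.00105 and 0.00159). Socs6 fell by 0.91 ± 0.16 on the log2 scale (adjusted p = 0.00352), and lost its call when PE replicate 1 was left out (-0.93, adjusted p = 0.0969), as it did when PE replicate 2 was left out (-0.87, adjusted p = 0.129). The 20 other ubiquitin ligases studied in muscle had 3 falls and 1 rise, with a median of 0.02. The falls were 15% of this list and the rise 5%, against 8.3% and 7.39% of all genes. Rnf207, a cardiac ligase that acts on potassium channels, fell by 1.00 ± 0.17, the mitochondrial ligase gene Mul1 by 0.92 ± 0.18 and Neurl2, a muscle ligase, by 0.77 ± 0.21 (adjusted p = 0.00299, 0.00728 and 0.0297), while Smurf2 rose by 0.57 ± 0.16 (adjusted p = 0.0335). With PE replicate 1 left out none of these 4 was called, with Rnf207 at -0.88, Mul1 at -0.87, Neurl2 at -0.82 and Smurf2 at 0.52 (adjusted p = 0.131, 0.137, 0.179 and 0.523). With PE replicate 2 left out the calls of Mul1, Neurl2 and Smurf2 were lost, at -0.96, -0.72 and 0.62 (adjusted p = 0.081, 0.265 and 0.355). Smurf2 was also not called with library sizes alone (0.52, adjusted p = 0.0524).

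**Figure D5:**
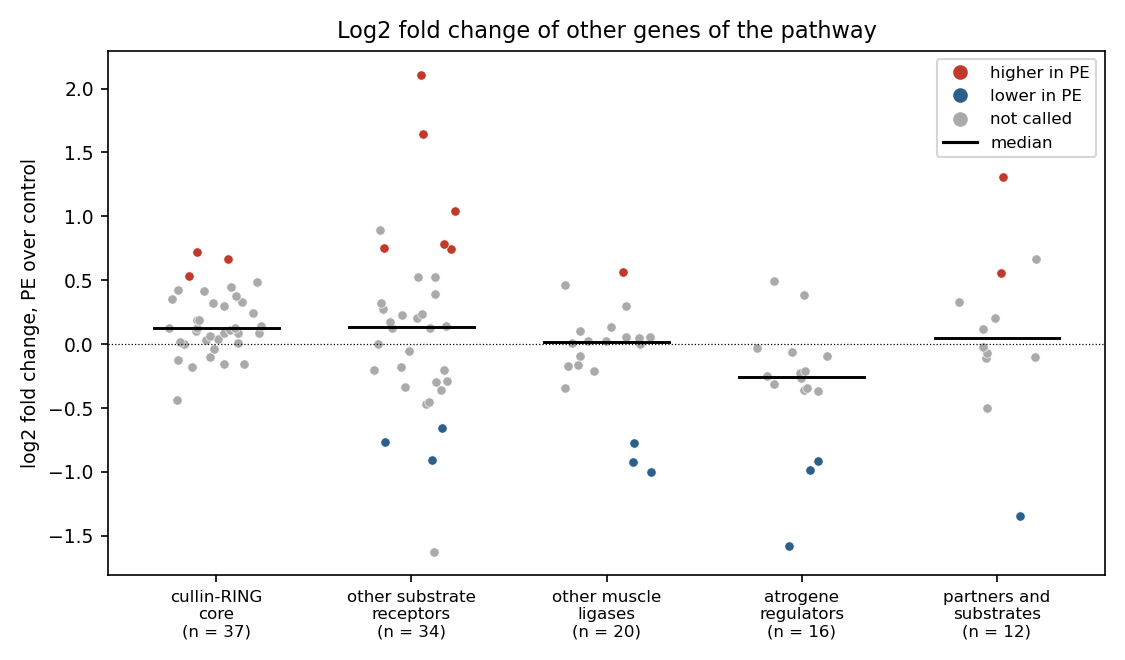
Log2 fold change of PE over control (vertical axis) for the tested genes of 5 lists around the adaptors; red points rose, blue points fell, grey points did not pass and bars are medians. The cullin-RING core lies between -0.44 and 0.72 with 3 rises, and the atrogene regulators lie mostly below 0 with 3 falls.

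Regulators known to act on the wasting genes Fbxo32 and Trim63 were also examined. Of 16 tested, 3 fell and 13 did not pass, and none rose by edgeR or DESeq2 (2 higher at an unadjusted p under 0.05). The 3 falls were 18.75% of the list, against 8.3% of all genes called lower and 15.7% called in either direction. The median was -0.26, and 14 of the 16 log2 fold changes were negative, against 7740 of 15257 over all genes. Klf15, a glucocorticoid-responsive factor, had 14.8 and 14.4 CPM in PE libraries, against 49.1 and 38.1 CPM in controls (-1.58 ± 0.19, edgeR adjusted p = 0.00036). Foxo1, a forkhead factor that induces both genes, had 13.99 and 15.3 CPM in PE libraries and 26.1 and 29.2 CPM in controls (-0.92 ± 0.18, adjusted p = 0.00588). Ppargc1a, a coactivator that opposes wasting, fell as well, by 0.99 ± 0.18 on the log2 scale (adjusted p = 0.00382). Without PE replicate 1 Foxo1 and Ppargc1a were no longer called, at -0.85 and -0.88 (adjusted p = 0.151 and 0.13), and without PE replicate 2 Foxo1 was at -0.98 (adjusted p = 0.0738). Of 12 tested partners and substrates 2 rose and 1 fell (16.7% and 8.33%, against 7.39% and 8.3% of all genes). The desmin gene Des had 3856 and 4508 CPM in PE libraries and 2078 and 1307 CPM in controls (1.30 ± 0.23, adjusted p = 0.00404), and Nrap rose by 0.56 ± 0.17 (adjusted p = 0.0464), which was lost with library sizes alone (0.51, adjusted p = 0.0726), with upper-quartile factors (0.54, adjusted p = 0.054), without PE replicate 1 (0.65, adjusted p = 0.334) and without PE replicate 2 (0.47, adjusted p = 0.562). Lmod3, the leiomodin that Klhl40 stabilises, fell by 1.34 ± 0.31 (adjusted p = 0.0145), at 1.23 and 1.19 CPM in PE libraries and 2.404 and 3.75 CPM in controls.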

How the data were processed

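The members and gene lists were chosen with earlier results of these data known. The authors' deposited count table gives raw counts per gene and library. Cutadapt 2.0, STAR 2.4.2a, featureCounts 1.6.4 and the build Rnor_6.0 are named per the submitters' processing notes. The sources used here state no parameters, such as the strand setting, so reads of overlapping genes are uncertain.

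The authors' deposited comparison table holds log2 fold changes with standard errors, a score (the test statistic), p-values, a signal (the mean normalized count) and gene names, per the file headers. A DESeq2 1.42.0 fit of the counts gave 2555 calls, as in the authors' deposited table, and matched all 20666 of its log2 fold changes within 1e-06.

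Counts were tested with edgeR 4.0.16 (quasi-likelihood F test, TMM factors, R 4.3.3), comparing PE with control, after its expression filter (minimum count 10, minimum total 15). Benjamini-Hochberg adjusted p-values cover all 15257 genes tested. Standard errors are the log2 fold change divided by the square root of F. CPM values are edgeR's, over the TMM-adjusted library size of the tested genes. TMM factors ranged from 0.982 to 1.03. Intervals and floors cover counting error only. The fit was tested on simulated data. Named genes are all muscle-list members described and up to 12 called rises and falls among other members. They also include the uncalled member of each family with most counts and up to 4 called genes per pathway list. Genes sharing an overlap and Asb16 were chosen after their values were seen. Other genes given by name, such as Fbxo2, Trim5, Trim21, Trim80 and single markers, also lie outside this rule. Mitochondrial-genome transcripts took 4.61% and 4.76% of counts in PE libraries and 6.19% and 11.7% in controls.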

Additional observations from a re-analysis of the deposited data

How the results depend on the processing

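All 29 called adaptors kept their direction under each of the 11 alternative settings. DESeq2 called 28 of them (not Klhl4), library sizes alone 29, upper-quartile factors 28 (not Trim71), no filter 29 (with 3 more adaptors), a summed count of at least 15 as the filter 29, and mitochondrial-genome genes left out 29. The number of calls depended on which libraries entered, since 1 library left in a group takes its spread from the other pair. With single libraries left out, called genes ranged from 1205 to 4755 over all genes (604 to 2398 higher, 601 to 2389 lower), from 13 to 46 over adaptors (5 to 22 higher, 8 to 25 lower) and from 7 to 15 over the striated muscle list (1 to 3 higher, 6 to 12 lower). By family the ranges were 4 to 8 for Asb, 1 to 5 for Fbxl, 1 to 8 for Fbxo, 3 to 10 for Klhl and 3 to 16 for Trim. The calls of 13 adaptors were lost without PE replicate 1 and of 16 without PE replicate 2, and no filter gave 2 called Fbxl genes. The median log2 fold change of adaptors, -0.05, was -0.10 with library sizes alone and -0.0792 with upper-quartile factors, and ranged from -0.0680 to 0.0685 with single libraries left out, the highest without control replicate 1. Among the uncalled members of the muscle list and the uncalled member of each family with most counts, signs turned with single libraries left out for Asb2 (-0.49 to 0.18), Klhl40 (-0.30 to 0.32, also 0.11 without PE replicate 1), Asb5 (-0.58 to 0.16) and Fbxo11 (-0.24 to 0.0012). The cause was not tested. Replicate numbers were shared between groups, but deviations of same-numbered libraries correlated at -0.23, and nothing in the labels pairs them. With the replicate block 1964 genes were called and 26 adaptors, 25 of them as before, and Fbxo31, Trim17, Trim34 and Trim54 were not. Of the genes named by rule, pathway lists included, 10 lost their call with the block and 46 did not change status. A crossed pairing, added after the data were seen, gave 4677 calls over all genes (2270 higher, 2407 lower) and 41 adaptors (20 higher). Depth limits the genes with fewest reads, such as Asb10, Trim15 and Fbxo17.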

Other observations

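Among Trim genes linked to interferon responses, 7 were tested, of which 1, Trim34, fell and none rose (none higher at an unadjusted p under 0.05 or with DESeq2). Over all genes 8.3% were called lower, so 1 gene of 7 says little about the group. The median log2 fold change was -0.18, and 6 of the 7 values were negative, against 7740 of 15257 over all genes. Groups did not overlap for 3 of the 7, against 56.7% of all genes. Trim5 was at 33.3 and 27.2 CPM in PE libraries and 28.0 and 40.5 CPM in controls, and Trim21 at 16.6 and 15.1 CPM in PE libraries and 14.2 and 20.0 CPM in controls, so the groups overlapped for both. Macrophage marker sums, which were also lower in PE, are given with the other marker lists, and their part here was not tested.

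Of the 14 adaptors with a summed count under 15, 6 had no count in any library (Asb17, Klhl1, Klhl14, Trim31, Trim40 and Trim42). Fbxl13, Fbxo2, Fbxo36 and Fbxo41 had at least 15 counts but were not tested, because too few libraries reached the filter. Fbxo2, a receptor for glycoproteins, had 9 and 11 counts in PE libraries and 2 and 0 in controls. Trim80 was at 1.94 ± 0.74 (edgeR adjusted p = 0.11) on 21 and 32 counts in PE libraries and 2 and 11 in controls. It passed without a filter, as Fbxl16 and Klhl6 did, and its log2 fold change ran from 1.11 to 3.73 with single libraries left out.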
